A study of Mus musculus with 6 samples.

Results

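Interferon response genes are the genes that detect viral nucleic acid, carry the signal of the interferon receptors and make the antiviral proteins that the signal induces. A list of 51 such mouse genes was followed through microarrays of B cells of Em-Myc mice, and 47 of them were measured, among 19938 genes in all. A member was taken as measured where a probe set carried its symbol and no other in the platform annotation. Irf1 had 2 such probe sets, and the one with the higher mean over the 6 arrays was used. Isg15, Gbp2 and Igtp share a probe set with another gene and were not used, and Ifi44 was not analysed here. The measured members were 4 sensors, 4 receptor chains, 7 transcription factors, 3 signalling regulators and 29 effectors.

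Em-Myc mice express the Myc oncogene in the B lineage from an enhancer of the immunoglobulin heavy chain locus, and every group here carries that transgene. The 6 arrays fell into 3 groups of 2. The first held B cell lymphomas generated with the short hairpin RNA shEzh2.781, the next held lymphomas generated with shEzh2.556, and the last held sorted B cells from the spleen of premalignant Em-myc mice with no hairpin. Both hairpins target Ezh2, the enzyme of the polycomb repressive complex that methylates histone H3 on lysine 27. Lymphoma cells were depleted of CD43-positive cells with beads, and flow cytometry found B220 and GFP on at least 95% of them, per the labels. The characteristics field calls the premalignant cells normal, while their titles and source name the transgene; the labels used here give neither strain nor age. Lymphomas without a hairpin against Ezh2 were not analysed here, so the effects of malignancy, of the hairpin and of the way the cells were prepared cannot be told apart in any comparison with premalignant cells. The labels do not say that the arrays of a group came from separate mice, and p-values then cover only the spread between these arrays, part of which may be technical.

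When a cell detects foreign RNA, sensors such as RIG-I and MDA5 switch on the factors Irf3 and Irf7, which induce type I interferon. Secreted interferon binds the receptor made of Ifnar1 and Ifnar2, and Stat2 and Irf9 then act in a complex that binds the interferon-stimulated response element, or ISRE, in the promoters of the effector genes. Many sensors and factors are themselves induced by interferon, which makes the system self-amplifying, and B cells keep a low level of its products without infection.

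The promoters of 4 members that were lower in the lymphomas are shown because each holds the core of the ISRE upstream of the gene's start. The core was searched as GAAA, any 2 bases and GAAA on either strand, which here reads TTTC, any 2 bases and TTTC, in RefSeq windows of GRCm38.p6 from 250 bases before to 50 bases after the start. Each sequence reads 5′ to 3′ along the gene's own strand, and capitals mark the core. That of Trim30a lies at chr7:104465194-104465274 on the minus strand with the core at base -36 from the start, and that of Gbp3 at chr3:142559960-142560043 on the plus strand with 2 overlapping cores at -45 and -39. That of Stat2 lies at chr10:128270248-128270330 on the plus strand with the core at -222, and that of Rsad2 at chr12:26456518-26456617 on the minus strand with the core at -120.
Trim30a: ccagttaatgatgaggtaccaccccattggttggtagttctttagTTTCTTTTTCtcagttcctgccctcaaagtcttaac
Gbp3: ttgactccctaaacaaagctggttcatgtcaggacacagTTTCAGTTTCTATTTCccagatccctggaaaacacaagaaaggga
Stat2: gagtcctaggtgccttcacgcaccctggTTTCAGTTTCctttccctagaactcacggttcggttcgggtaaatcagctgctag
Rsad2: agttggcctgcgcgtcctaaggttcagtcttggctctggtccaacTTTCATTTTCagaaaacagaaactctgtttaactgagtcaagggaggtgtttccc

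All values below are log2 signals as deposited, and a difference between groups is a difference of log2 signals, which a microarray compresses at low signal. Ezh2 itself, the target of the hairpins, had 10.92 and 11.07 in shEzh2.781 lymphomas and 11.20 and 11.30 in shEzh2.556 lymphomas, against 12.64 and 12.70 in premalignant cells. It was 2.92-fold lower over both hairpins (limma, adjusted p = 1.31e-06), and the hairpins overlapped neither each other nor the premalignant cells. Array medians over all genes lay between 7.02 and 7.18. The correlation of arrays across genes was 0.996 within each group and 0.977 to 0.988 between groups. B cell markers were high in every array, from 10.53 for Ms4a1 to 13.00 for Cd79b.

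More of the interferon response genes fell than rose in the lymphomas. Of the 47 members, 21 fell and 2 rose over both hairpins, and 24 did not pass the test (limma on all genes, Benjamini-Hochberg adjusted p under 0.05). Over all genes 9.61% fell and 5.6% rose. The median difference of the members was -0.35, against 0.025 for all genes, and 42 of the 47 members had a difference below 0. All lymphoma arrays lay below both premalignant arrays for 31 members, where 16.1% of all genes did so, and above both for 3 members, where 12.7% of all genes did so. Fewer members passed as lower when either premalignant array was left out, and 6 did when the 4 lymphomas were fitted as 1 group. The share of all genes called was not computed for any alternative fit. A smaller count there cannot be told from fewer calls among all genes.

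**Figure D1:**
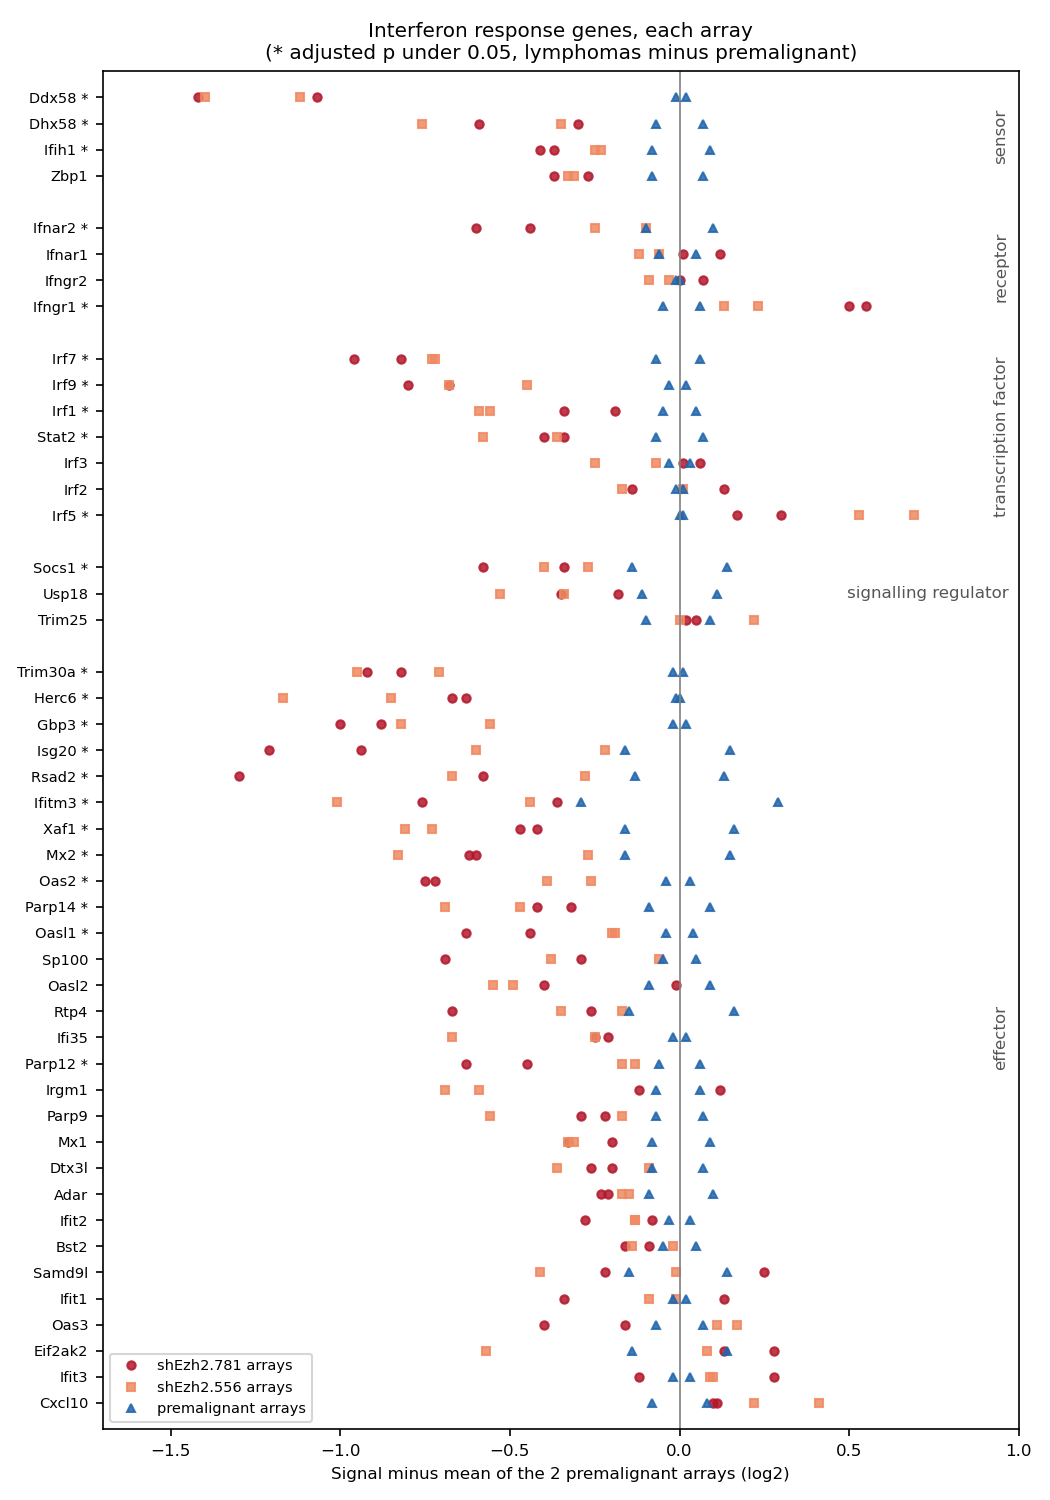
Log2 signal of each member in each array minus the mean of the 2 premalignant arrays, by role and ordered by the difference. Circles are shEzh2.781 arrays, squares shEzh2.556 arrays and triangles premalignant arrays; a star marks an adjusted p under 0.05 for lymphomas minus premalignant cells. Most lymphoma points lie left of the premalignant points, with Ddx58 farthest left among the members and Irf5 and Ifngr1 to the right.

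Among the sensors, 3 of 4 fell. Ddx58, which encodes RIG-I, the cytoplasmic sensor of viral RNA ends, had 8.57 and 8.92 in shEzh2.781 lymphomas and 8.59 and 8.87 in shEzh2.556 lymphomas, against 10.01 and 9.98 in premalignant cells. The lymphomas of both hairpins overlapped each other and lay far below the premalignant cells. The difference was -1.25 (SE 0.12, adjusted p = 3.13e-05), or 2.38-fold lower, and Ddx58 was the 1 member that changed at least 2-fold over both hairpins. Dhx58, which encodes LGP2, a helicase that modulates RIG-I and MDA5, had 7.17 and 7.46 in shEzh2.781 lymphomas and 7.0 and 7.41 in shEzh2.556 lymphomas, against 7.69 and 7.83 in premalignant cells. It fell by 0.50 (SE 0.13, adjusted p = 0.0243), with the gap to the premalignant cells smaller than the spread within shEzh2.556 lymphomas. Ifih1, which encodes MDA5, a sensor of long double-stranded RNA, had 6.09 and 6.13 in shEzh2.781 lymphomas and 6.25 and 6.27 in shEzh2.556 lymphomas, against 6.59 and 6.42 in premalignant cells. It fell by 0.32 (SE 0.10, adjusted p = 0.0475), a call that ended whichever array was left out, with adjusted p between 0.0643 and 0.285. The call for Dhx58 ended without premalignant array 1, premalignant array 2 or shEzh2.556 array 1 (0.0868, 0.182 and 0.0684 in that order). Zbp1, a sensor of Z-form nucleic acid that can trigger necroptosis, had 6.90 and 7.0 in shEzh2.781 lymphomas and 6.94 and 6.96 in shEzh2.556 lymphomas, against 7.19 and 7.34 in premalignant cells. All its lymphoma values were below the premalignant ones, but the difference of -0.31 missed the threshold (SE 0.10, adjusted p = 0.0512).

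The receptor chains moved in both directions or not at all. Ifnar2, the signalling chain of the type I receptor, had 9.59 and 9.75 in shEzh2.781 lymphomas and 9.94 and 10.09 in shEzh2.556 lymphomas, against 10.09 and 10.29 in premalignant cells. It fell by 0.35 over both hairpins (SE 0.11, adjusted p = 0.0474), with one shEzh2.556 array reaching the lower premalignant value at this rounding. Ifngr1, the ligand-binding chain of the interferon gamma receptor, had 10.57 and 10.62 in shEzh2.781 lymphomas and 10.20 and 10.30 in shEzh2.556 lymphomas, against 10.13 and 10.02 in premalignant cells. It rose by 0.35 (SE 0.10, adjusted p = 0.0301), and the higher values were those with shEzh2.781. Both calls were lost without single arrays: leaving out each in turn gave adjusted p between 0.0445 and 0.268 for Ifnar2 and between 0.0456 and 0.163 for Ifngr1, with 0.268 and 0.163 both obtained without premalignant array 2. The partner chains did not pass. Ifnar1 had 9.55 and 9.66 in shEzh2.781 lymphomas and 9.42 and 9.48 in shEzh2.556 lymphomas, against 9.48 and 9.59 in premalignant cells, a difference of -0.01 (95% interval -0.22 to 0.20). Ifngr2 had 11.06 and 10.99 in shEzh2.781 lymphomas and 10.96 and 10.90 in shEzh2.556 lymphomas, against 10.98 and 10.99 in premalignant cells, a difference of -0.01 (95% interval -0.21 to 0.20). For both, shEzh2.781 and premalignant values overlapped; the shEzh2.556 values of Ifngr2 lay just below those of the premalignant cells.

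Of the 7 transcription factors, 4 fell and 1 rose. Irf7, the factor that amplifies type I interferon production, had 7.06 and 7.20 in shEzh2.781 lymphomas and 7.30 and 7.29 in shEzh2.556 lymphomas, against 8.08 and 7.95 in premalignant cells. The groups did not overlap, and Irf7 was 1.75-fold lower (difference -0.80, SE 0.10, adjusted p = 0.000164). Irf9, the DNA-binding subunit of the complex that binds the ISRE, had 8.66 and 8.78 in shEzh2.781 lymphomas and 8.78 and 9.01 in shEzh2.556 lymphomas, against 9.43 and 9.48 in premalignant cells. It was 1.57-fold lower (difference -0.65, SE 0.10, adjusted p = 0.00122), with lymphomas of both hairpins apart from the premalignant cells. Stat2, another subunit of that complex, had 8.77 and 8.83 in shEzh2.781 lymphomas and 8.59 and 8.81 in shEzh2.556 lymphomas, against 9.10 and 9.24 in premalignant cells. Stat2 fell by 0.42 (SE 0.10, adjusted p = 0.0168), and leaving out premalignant array 2 gave an adjusted p of 0.135, leaving out shEzh2.556 array 1 one of 0.0525.

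Irf1, an interferon gamma-induced factor, had 9.0 and 8.85 in shEzh2.781 lymphomas and 8.60 and 8.63 in shEzh2.556 lymphomas, against 9.14 and 9.24 in premalignant cells. It fell by 0.42 (SE 0.10, adjusted p = 0.0122), with the lower values under shEzh2.556. Its other probe set, of lower signal (mean 7.16 against 8.91), differed by -0.06, and the call ended when both were averaged (-0.24, adjusted p = 0.133) and when premalignant array 2 was left out (0.0991). Irf5, which acts downstream of Toll-like receptors, was the factor that rose. Irf5 had 10.03 and 10.16 in shEzh2.781 lymphomas and 10.55 and 10.39 in shEzh2.556 lymphomas, against 9.86 and 9.87 in premalignant cells. The difference was 0.42 (SE 0.10, adjusted p = 0.0137), highest with shEzh2.556, and its adjusted p was 0.0806 and 0.0773 without premalignant arrays 1 and 2. Irf3, which starts interferon induction in most cells, differed by -0.06 (95% interval -0.27 to 0.16) and Irf2, which can repress ISRE-driven genes, by -0.04 (95% interval -0.28 to 0.20), and neither passed.

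Of the signalling regulators, Socs1, an inhibitor of the Janus kinases, had 7.89 and 7.65 in shEzh2.781 lymphomas and 7.96 and 7.83 in shEzh2.556 lymphomas, against 8.09 and 8.37 in premalignant cells. It fell by 0.40 (SE 0.12, adjusted p = 0.0376), a call lost without premalignant array 2 (adjusted p = 0.273), shEzh2.781 array 2 (0.0926), shEzh2.556 array 1 (0.056) or shEzh2.556 array 2 (0.0929). Usp18, a protease that removes ISG15 from proteins and damps signalling at Ifnar2, had 7.15 and 6.98 in shEzh2.781 lymphomas and 6.99 and 6.80 in shEzh2.556 lymphomas, against 7.22 and 7.44 in premalignant cells. Its difference of -0.35 missed the threshold (SE 0.11, adjusted p = 0.0557). Trim25, the ubiquitin ligase that activates RIG-I, had 10.71 and 10.74 in shEzh2.781 lymphomas and 10.69 and 10.91 in shEzh2.556 lymphomas, against 10.78 and 10.59 in premalignant cells. The groups overlapped, and the difference was 0.08 (95% interval -0.16 to 0.31).

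**Figure D2:**
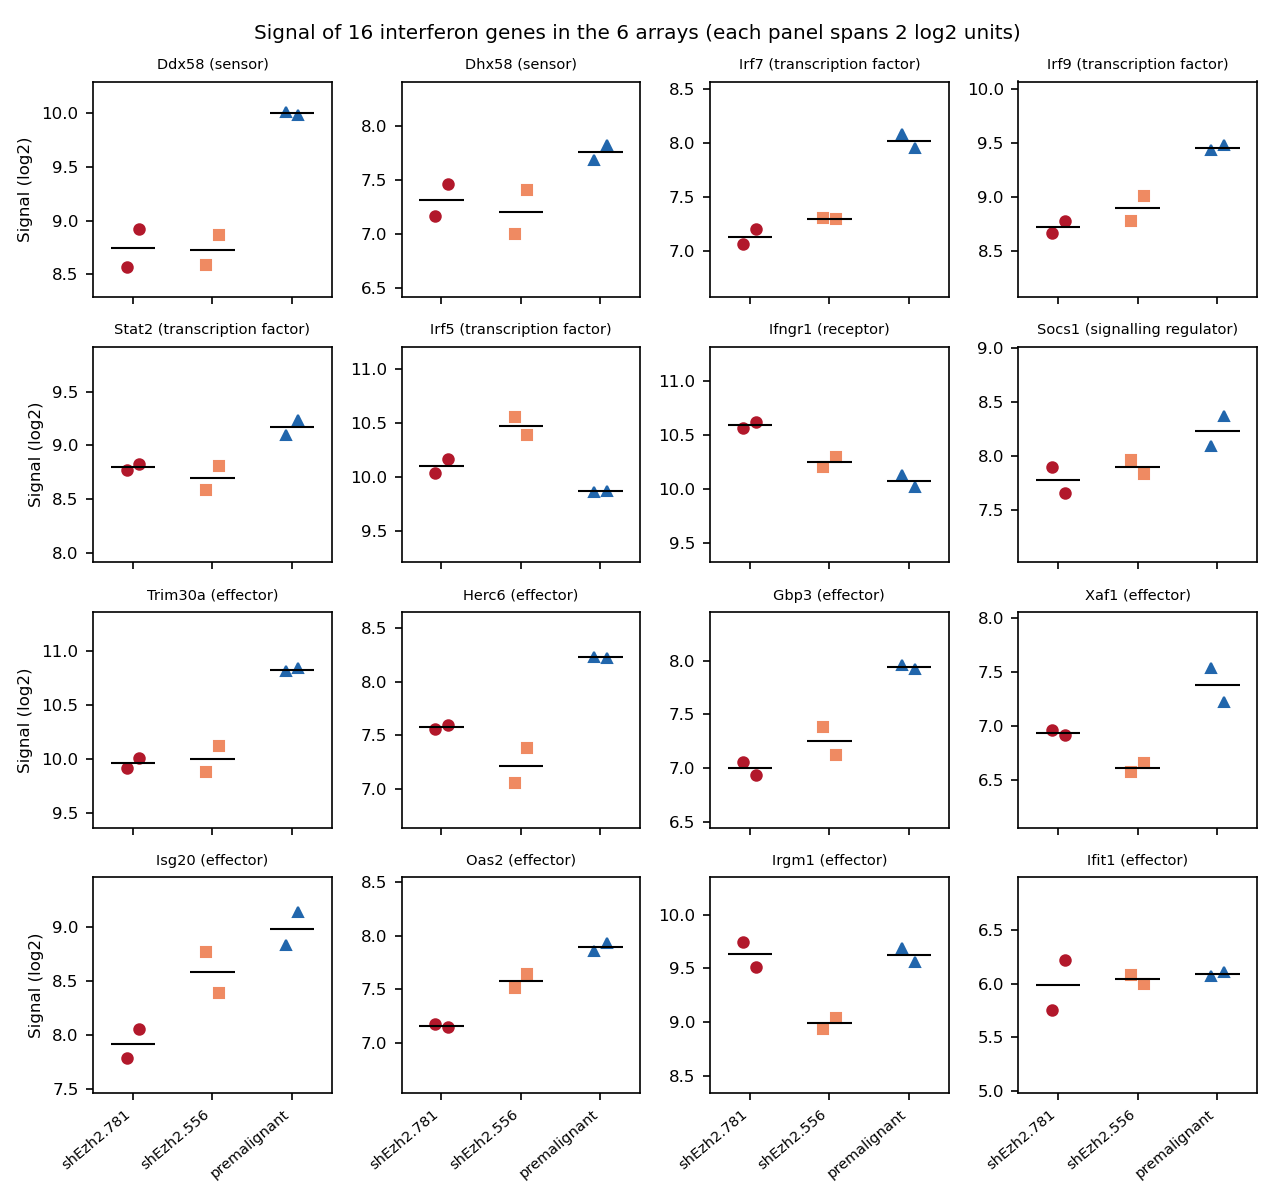
Log2 signal of 16 members in each array, with shEzh2.781, shEzh2.556 and premalignant arrays from left to right in every panel. Points are arrays and bars are group means, and each panel spans 2 log2 units. Ddx58, Irf7, Irf9, Trim30a, Herc6 and Gbp3 show all lymphomas well below the premalignant cells, Irgm1 is low with shEzh2.556, and Ifit1 overlaps between all groups.

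Among the 29 effectors, 12 fell and none rose (19 differed at an unadjusted p under 0.05 in either direction). Trim30a, a mouse tripartite-motif protein that restrains Toll-like receptor signalling, had 9.91 and 10.01 in shEzh2.781 lymphomas and 9.88 and 10.12 in shEzh2.556 lymphomas, against 10.81 and 10.84 in premalignant cells. It was 1.80-fold lower (difference -0.85, SE 0.10, adjusted p = 0.000158), with the hairpins overlapping each other. Herc6, which in mice attaches ISG15 to proteins, had 7.56 and 7.60 in shEzh2.781 lymphomas and 7.06 and 7.38 in shEzh2.556 lymphomas, against 8.23 and 8.22 in premalignant cells. It was 1.77-fold lower (difference -0.83, SE 0.11, adjusted p = 0.000293), and the lymphoma values did not reach the premalignant ones. Gbp3, a guanylate-binding GTPase, had 7.06 and 6.94 in shEzh2.781 lymphomas and 7.38 and 7.12 in shEzh2.556 lymphomas, against 7.96 and 7.92 in premalignant cells. It was 1.76-fold lower (difference -0.81, SE 0.11, adjusted p = 0.000276). Xaf1, which antagonises an inhibitor of apoptosis, had 6.96 and 6.91 in shEzh2.781 lymphomas and 6.57 and 6.65 in shEzh2.556 lymphomas, against 7.54 and 7.22 in premalignant cells. It fell by 0.61 (SE 0.11, adjusted p = 0.00248), and no lymphoma value reached the premalignant ones.

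The other effectors that fell were Isg20 (-0.74), an exonuclease that degrades viral RNA, Rsad2 (-0.71), the radical SAM enzyme viperin, Ifitm3 (-0.64), which blocks the entry of enveloped viruses, and Mx2 (-0.57), a dynamin-like GTPase. Oas2 (-0.53), a synthetase of the messenger that activates RNase L, Parp14 (-0.47) and Parp12 (-0.35), ADP-ribosyltransferases, and Oasl1 (-0.37), which restrains translation of Irf7 in mice, completed the group. Of the 6 fits that each leave out 1 array, Oasl1 and Parp12 passed in 1, Rsad2 in 3, Ifitm3 in 4 and Isg20, Mx2 and Parp14 in 5, while Oas2 passed in all 6. Isg20 and Mx2 lost the call without premalignant array 2, and Parp14 without premalignant array 1. The 17 effectors that did not pass ranged from -0.36 for Rtp4, Oasl2 and Sp100 to 0.21 for Cxcl10. The Ifit genes, Cxcl10 and Mx1, all commonly measured interferon-stimulated genes, were among them. Ifit1, which binds viral RNA without cap methylation, had 5.75 and 6.22 in shEzh2.781 lymphomas and 6.08 and 6.0 in shEzh2.556 lymphomas, against 6.07 and 6.11 in premalignant cells, a difference of -0.08 (95% interval -0.35 to 0.20). Ifit2 differed by -0.15 and Ifit3 by 0.09, and the chemokine Cxcl10 by 0.21 (adjusted p = 0.225). Mx1, an influenza restriction factor that is disrupted in many laboratory strains, had 5.29 and 5.42 in shEzh2.781 lymphomas and 5.31 and 5.29 in shEzh2.556 lymphomas, against 5.54 and 5.71 in premalignant cells, a difference of -0.29 that did not pass (adjusted p = 0.0754). Irgm1 differed by -0.32 (adjusted p = 0.0698). Ifi35 (-0.35), Parp9 (-0.31), Dtx3l (-0.22) and Adar (-0.19), with Mx1, Ifit2, Rtp4 and Sp100, lay below both premalignant arrays in all lymphomas without passing. The difference was -0.10 for Bst2, which tethers budding virus, -0.09 for Samd9l, -0.07 for Oas3 and -0.02 for Eif2ak2, the kinase PKR.

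The members that fell were not confined to one level of signal. Mx1 and Mx2 lay below the lower quartile of mean signal over all genes (5.85), and 13 members lay below the median (7.1). Of these 13, 5 fell, and of the 34 members above the median 16 fell. The array does not state a background level for these values, so a low signal cannot be told from none.

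**Figure D3:**
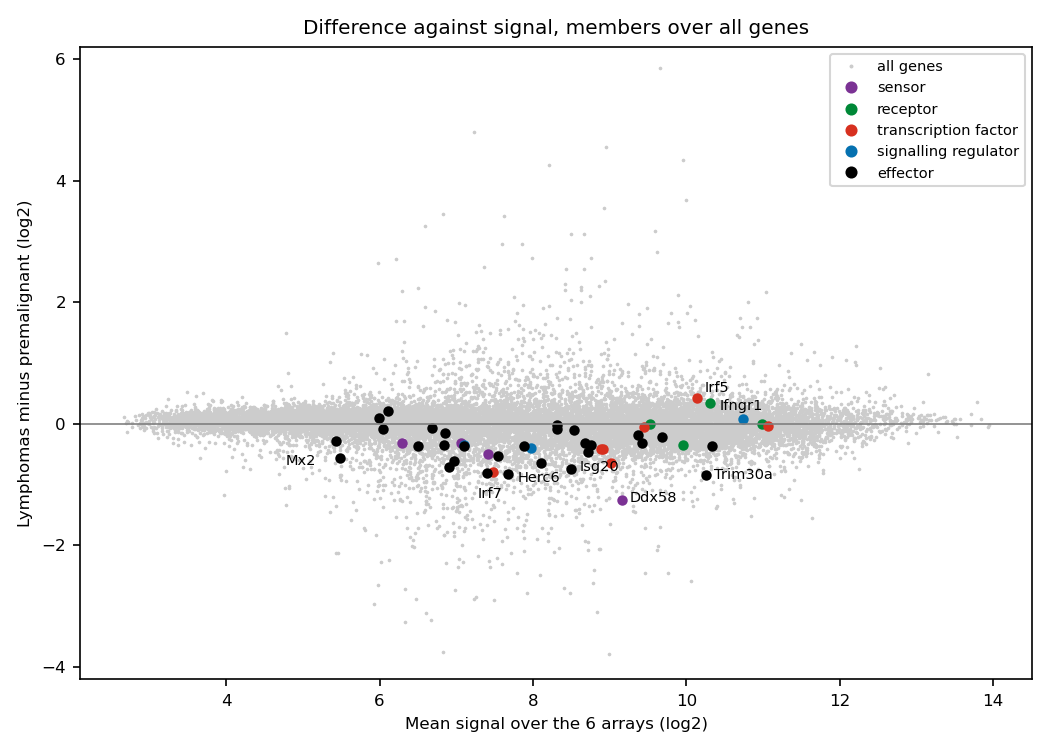
Difference of log2 signal, lymphomas minus premalignant cells, against mean log2 signal over the 6 arrays. Grey points are all genes and coloured points the 47 members by role. Members lie mostly below 0, within the range of the other genes, with Ddx58 at -1.25 and Irf5 at 0.42 as the extremes.

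The hairpins were then set apart, each against the same 2 premalignant arrays, so these comparisons share their controls. With shEzh2.781, 16 members fell and 1 rose, Ifngr1, where 6.24% of all genes fell and 4.6% rose, and the median difference was -0.28. With shEzh2.556, 17 members fell and 1 rose, Irf5, where 11.4% of all genes fell and 6.8% rose, and the median difference was -0.32. All genes had medians of -0.03 with shEzh2.781 and 0.07 with shEzh2.556. Without premalignant array 2 the counts that fell were 9 and 10. Ddx58, Irf7, Irf9, Mx2, Herc6, Xaf1, Trim30a and Gbp3, 8 members in all, fell with each hairpin. The share of all genes that fell with each hairpin was not computed, so this count cannot be set against it. For Ddx58 the differences were -1.25 with shEzh2.781 and -1.26 with shEzh2.556, and for Trim30a they were -0.87 and -0.83. For Irf7 they were -0.89 with shEzh2.781 and -0.72 with shEzh2.556, and for Herc6 -0.64 and -1.01. The calls for Mx2 with either hairpin (adjusted p = 0.0427 with shEzh2.781 and 0.048 with shEzh2.556) and for Xaf1 with shEzh2.781 (adjusted p = 0.0427) were near the threshold. Of the 6 fits that each leave out 1 array, Mx2 kept its call in 2 with shEzh2.781 and in 3 with shEzh2.556, and Xaf1 kept its call with shEzh2.781 in 1. Herc6 lost its call with shEzh2.781 without premalignant array 2, and Irf9 lost its call with shEzh2.556 without shEzh2.556 array 1.

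Another 8 members passed as lower with shEzh2.781 alone, namely Ifih1, Ifnar2, Socs1, Isg20, Oas2, Oasl1, Rsad2 and Parp12, and 9 with shEzh2.556 alone, namely Dhx58, Irf1, Stat2, Usp18, Ifi35, Ifitm3, Oasl2, Parp14 and Irgm1. Passing with one hairpin does not show a difference between them, and the direct comparison, shEzh2.781 minus shEzh2.556, called 2 members lower, 1 higher and left 44 uncalled, where 4.53% of all genes were lower and 5.5% higher. The median difference of the members was -0.02. Isg20 had 7.78 and 8.05 in shEzh2.781 lymphomas and 8.77 and 8.39 in shEzh2.556 lymphomas, with 8.83 and 9.14 in premalignant cells. Isg20 was 1.58-fold lower with shEzh2.781 than with shEzh2.556 (difference -0.66, SE 0.16, adjusted p = 0.0251). Oas2 had 7.18 and 7.15 in shEzh2.781 lymphomas and 7.51 and 7.64 in shEzh2.556 lymphomas, with 7.86 and 7.93 in premalignant cells, so that the 3 groups formed separate steps. It was lower with shEzh2.781 by 0.41 on the log2 scale (SE 0.11, adjusted p = 0.0407). Irgm1, an immunity-related GTPase that guards vacuoles and autophagy, went the other way. It had 9.75 and 9.51 in shEzh2.781 lymphomas and 8.94 and 9.04 in shEzh2.556 lymphomas, with 9.69 and 9.56 in premalignant cells. With shEzh2.781 it overlapped the premalignant cells, and it was 1.56-fold higher than with shEzh2.556 (difference 0.64, SE 0.12, adjusted p = 0.00846).

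These calls between hairpins changed when single arrays were left out, with 0 to 2 members called in each direction. Without shEzh2.781 array 1 and without shEzh2.556 array 1, adjusted p was 0.0915 and 0.183 for Isg20 and 0.0617 and 0.0712 for Irgm1. For Oas2 it lay between 0.0453 and 0.191 when 1 array was left out, and it was 0.0935 to 0.191 in each fit that dropped a lymphoma array. Markers of neutrophils differed between the hairpins too: 9 of 10 were higher with shEzh2.781 than with shEzh2.556, with a median difference of 1.71, and all 4 erythroid markers were lower, with a median of -0.85. Their part in the differences of Isg20, Oas2 and Irgm1 was not tested.

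**Figure D4:**
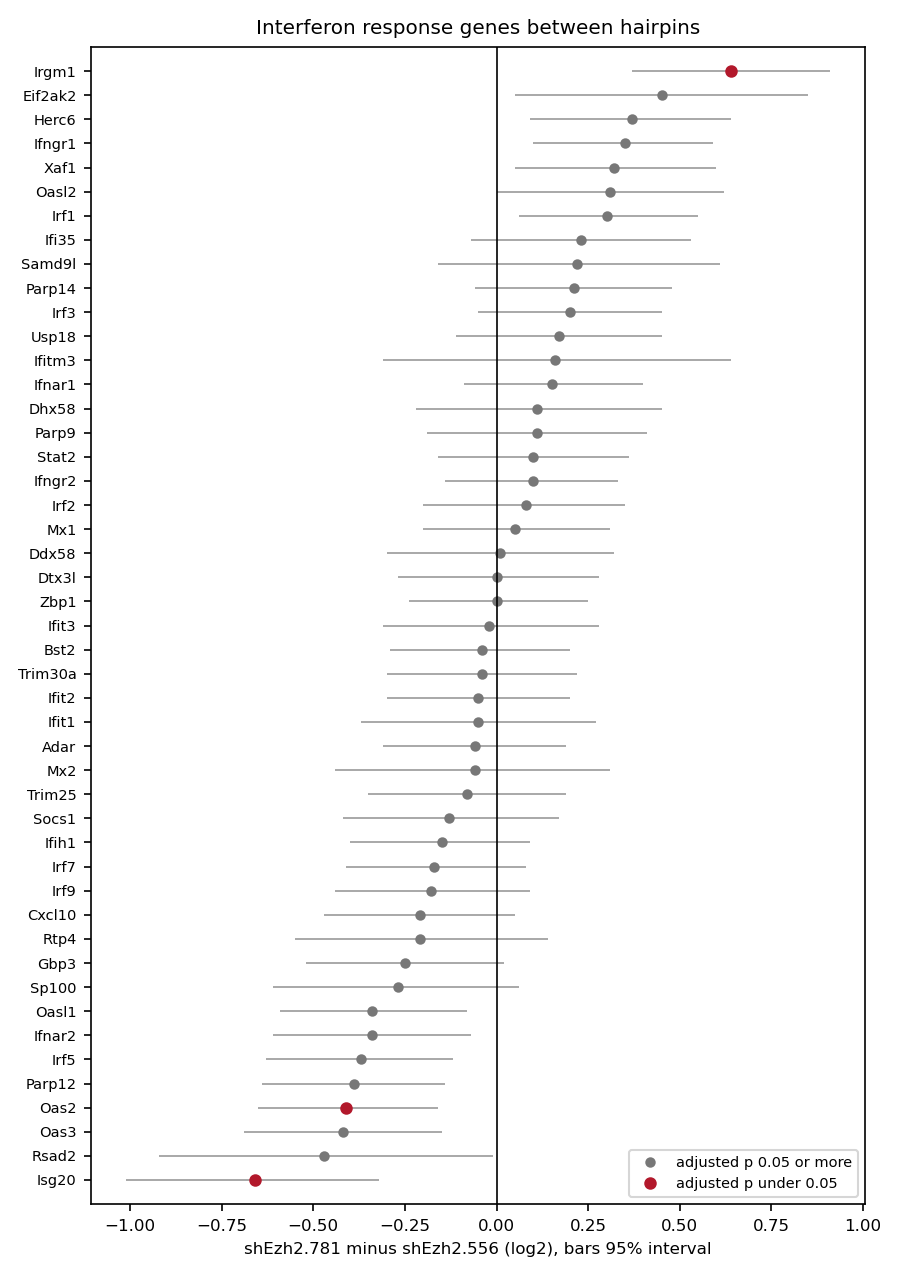
Difference of log2 signal, shEzh2.781 minus shEzh2.556, for the 47 members, with 95% intervals from limma. Red points passed at an adjusted p under 0.05 and grey points did not. Irgm1 stands at the top at 0.64, Oas2 at -0.41 and Isg20 at -0.66 lie near the bottom, and the interval of Ddx58 runs from -0.30 to 0.32.

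Other genes of the pathway were measured for 83 of 105 listed symbols, and 22 fell and 5 rose over both hairpins, with a median of -0.05. Over all genes 9.61% fell and 5.6% rose, with a median of 0.025. None of 16 interferon ligand genes passed in either direction over both hairpins (2 at an unadjusted p under 0.05). With shEzh2.556 alone, Ifna2 was higher than in premalignant cells by 0.44 (limma, adjusted p = 0.048). Between hairpins, Ifna5 (-0.41) and Ifnl2 (-0.50) passed as lower with shEzh2.781 than with shEzh2.556. Ifnb1, interferon beta, had 5.12 and 5.19 in shEzh2.781 lymphomas and 5.33 and 5.05 in shEzh2.556 lymphomas, against 5.12 and 5.07 in premalignant cells, and its difference was 0.08 (adjusted p = 0.712). All groups of Ifnb1 overlapped at a signal below the lower quartile of all genes. Of 17 genes upstream of interferon 4 fell and 2 rose, and of 12 downstream of its receptors 3 fell.

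Of 38 further interferon-stimulated genes 15 fell and 3 rose, where 9.61% of all genes fell and 5.6% rose. The guanylate-binding proteins Gbp9, Gbp4 and Gbp5, GTPases that attack vacuoles of intracellular pathogens, had differences of -1.49 (adjusted p = 5.62e-06), -1.72 (adjusted p = 0.000218) and -0.64 (adjusted p = 0.00097), and all 3 fell. Gbp9 had 6.53 and 6.57 in shEzh2.781 lymphomas and 6.87 and 6.59 in shEzh2.556 lymphomas, against 8.0 and 8.26 in premalignant cells. Its lymphoma values lay far below the premalignant ones, as those of Gbp3 did. Ifi27 fell by 0.91, the helicase Ddx60 by 0.71 and Slfn2, a Schlafen protein of lymphocyte quiescence, by 0.80. Ifi30, a lysosomal thiol reductase of antigen processing, went against the rest, with 12.32 and 12.45 in shEzh2.781 lymphomas and 12.41 and 12.53 in shEzh2.556 lymphomas, against 11.43 and 11.34 in premalignant cells. It rose 2.06-fold (adjusted p = 2.52e-05), and Tor3a, an ATPase of the endoplasmic reticulum, rose by 0.81 (adjusted p = 0.000211).

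The lineage factors Irf4 and Irf8, relatives of the members that direct B cell differentiation, fell as well. Irf8 had 11.28 and 11.24 in shEzh2.781 lymphomas and 11.16 and 11.16 in shEzh2.556 lymphomas, against 11.64 and 11.84 in premalignant cells. The difference was -0.53 (adjusted p = 0.00333; 0.0526 without premalignant array 2), with no overlap. Irf4 had 11.07 and 11.01 in shEzh2.781 lymphomas and 10.20 and 10.40 in shEzh2.556 lymphomas, against 11.21 and 11.41 in premalignant cells. It fell by 0.64 over both hairpins (adjusted p = 0.00148; 0.202 with the lymphomas as 1 group), and it was 1.67-fold higher with shEzh2.781 than with shEzh2.556 (adjusted p = 0.00378).

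Markers of other cells that sort with or near B cells also differed between lymphomas and premalignant cells, and bulk arrays cannot tell fewer cells of a type from less RNA per cell. Plasmacytoid dendritic cells, which carry B220 and are known for high Irf7, were followed with 6 markers, of which 4 fell, with a median of -0.96. Their most specific marker, Siglech, had 5.78 and 6.09 in shEzh2.781 lymphomas and 6.28 and 6.12 in shEzh2.556 lymphomas, against 8.35 and 9.26 in premalignant cells. Siglech fell by 2.74 and Ccr9 fell by 2.28, and in the lymphomas both lay between 5.78 and 6.57, near the lower quartile of all genes. The log2 of the summed signal of the 6 markers was 9.29 to 9.53 in lymphomas, against 10.4 and 11.1 in premalignant arrays 1 and 2. Between the premalignant arrays the mean of these markers was 7.61 and 8.20, while the mean over the interferon members was 8.41 and 8.45. Of the 47 members 29 were higher in array 2 than in array 1, among them 13 of the 21 that fell, such as Ifitm3 with 8.24 in array 1 and 8.82 in array 2. Ddx58 and Irf7 were among the 18 that were not higher, and the median of array 2 minus array 1 was 0.04 over the members and 0.08 over all genes. The part of plasmacytoid dendritic cells in the lower interferon genes was not tested.

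All 10 neutrophil markers fell, with a median of -2.05 and a log2 summed signal of 9.78 to 12.16 in lymphomas against 12.92 and 13.11 in premalignant cells. Of the remaining lists, 5 of 8 NK cell, 3 of 7 conventional dendritic cell, 2 of 7 T cell and 2 of 4 erythroid markers fell. One conventional dendritic cell marker rose. The T cell markers that fell were Cd4 (-1.63) and Cd8a (-1.38). The CD3 genes Cd3e (0.12), Cd3d (-0.13) and Cd3g (-0.04) did not pass, nor did Thy1 and Cd28. None of 9 monocyte and macrophage markers fell and 2 rose (4 at an unadjusted p under 0.05 in either direction). Of 7 B cell markers 3 fell and 1 rose, with a median of -0.19. For comparison, 9.61% of all genes fell and 5.6% rose. The part of these cells in the interferon results was not tested.

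**Figure D5:**
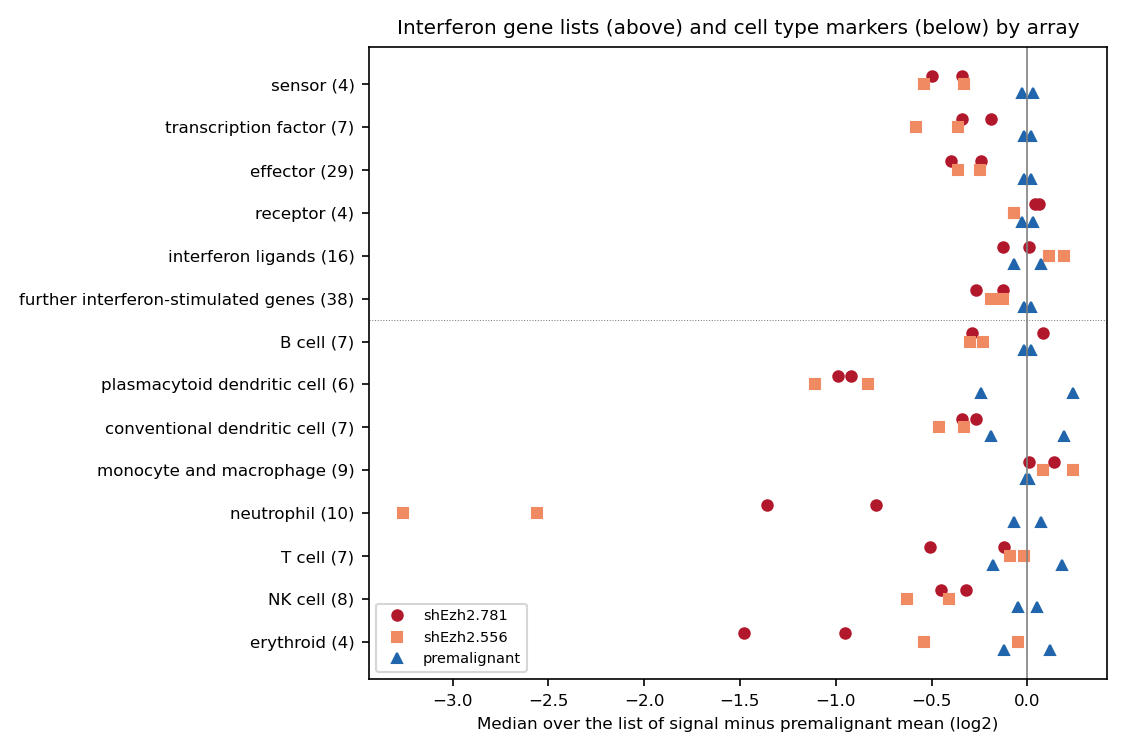
Median over each list of the log2 signal minus the premalignant mean, for 6 interferon gene lists (above the dotted line) and 8 lists of cell type markers (below it), with the number of genes measured in brackets. Circles are shEzh2.781, squares shEzh2.556 and triangles premalignant arrays. Sensors, transcription factors and effectors lie left of the premalignant arrays in all lymphomas, and neutrophil and plasmacytoid dendritic cell markers lie farther left.

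The promoters were then described over all members. A RefSeq window was found for 38 of the 47 measured members, and 16 of these (42.11%) held the ISRE core, against 3.89% of the 15563 measured genes with a window and 3.44% of all 32851 windows. The core of the gamma-activated sequence, TTCNNNGAA on either strand, was in 11 members (28.95%), against 9.01% of measured genes and 8.3% of all windows, and 4 members held both cores. The cores are shared letters, not measured binding sites. Members with the ISRE core fell in 8 of 16 cases and rose in 0, with a median of -0.32, and members without it fell in 9 of 22 cases and rose in 2, with a median of -0.35. Over all genes with a window, 13.72% of those with the core fell and 5.29% rose (median 0.018), against 9.61% and 5.61% of those without it (median 0.022). Trim30a, Gbp3, Stat2 and Rsad2, whose cores are printed above, thus stand beside Ifit1, Ifit3, Cxcl10 and Oas3, which hold the core too and did not pass. The members that fell most are taken here as far as Irf9 (-0.65). Of these, Ddx58, Trim30a, Gbp3 and Rsad2 hold the core in a window, while Irf7, Irf9, Herc6 and Isg20 have no such letters.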

How the data were processed

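The 6 mouse B cell samples were measured on 1-colour Affymetrix Mouse Gene 1.0 ST arrays with biotin-labelled RNA. RNA was extracted with Trizol and the RNeasy kit, per the labels' protocols. The deposited log2 values are 1 per probe set, made by the authors; the log2 scale was inferred from their range, 2.3 to 14.2. For background correction, normalization and summarization, the method is not given in the sources used here.

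The platform annotation gave 1 symbol for 21789 of 35512 probe sets, several for 1621 and none for 12102. The 19938 genes with their own probe set were used, with the probe set of highest mean for the 999 genes with more than 1. One limma model (version 3.58.1, R 4.3.3) held the 3 group means and no covariate, with 3 residual and 8.51 prior degrees of freedom, and Benjamini-Hochberg adjusted p-values over all genes were called at 0.05. The fit was tested on simulated data. Precision is limited by the 2 arrays per group. Array numbers were not found to pair the samples: deviations from group means correlated at -0.091 (premalignant and shEzh2.781), -0.124 (premalignant and shEzh2.556) and 0.064 (shEzh2.781 and shEzh2.556). With 2 arrays per group, these values cannot show that pairing is absent.

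The members, their roles, the other pathway genes and the marker lists were chosen with earlier results of these data known. Genes were named by rule: up to 4 members per role with the smallest p, up to 6 called members between hairpins, up to 8 other pathway genes with the smallest p, a few members, Irf4, Irf8 and Ifnb1 always, and any member where the list is accounted for. The markers Siglech and Ccr9 and those of T cells were named after their values were seen. Promoters came from RefSeq (GRCm38.p6), matched by Entrez gene identifier. Alternatives changed the normalization, centring, low-signal filter, probe set rule, features tested, variance prior, block, grouping and arrays kept. Python 3.11.15 with matplotlib 3.10.9, numpy 2.4.6 and pandas 2.3.3 made the tables and plots.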

Additional observations from a re-analysis of the deposited data

Results flagged for a closer look

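Among the members and the other pathway genes named by rule, the direct comparison of the hairpins marked 4 genes, 3 of them from the 47 members. Of all genes, 4.53% were lower and 5.5% higher in that comparison. With shEzh2.781 relative to shEzh2.556, Isg20 was lower by a log2 difference of -0.66 and Oas2 by -0.41, while Irgm1 was higher by 0.64 and Irf4 by 0.74. Each passed limma's test of that difference over all genes, and in each the arrays of both hairpins did not overlap. As given above, the calls of the 3 members each ended when some single arrays were left out. Irgm1 and Irf4 shared a shape, with shEzh2.781 lymphomas closer to premalignant cells than shEzh2.556 lymphomas, and Isg20 and Oas2 had the opposite one.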

How the results depend on the processing

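No named value that passed the threshold changed direction, while the uncalled differences of Ifnar1, Ifngr2, Ifit1 and Trim25, all near 0, took both signs. Of 539 alternative values for 37 single genes, 460 kept their side of the threshold, 71 lost the call and 8 gained one. The members Ddx58, Irf7, Irf9, Herc6, Trim30a and Gbp3 were called lower over both hairpins in all 15 alternatives, and Oas2 and Xaf1 joined them when only the fits that leave out 1 array are counted. The count lower over both hairpins was 21, and leaving out 1 array gave the same count or a smaller one. It was 9 with all probe sets in the fit and 6 with the lymphomas as 1 group. The count higher was 2, and it was 0 in both of those alternatives and 0 to 2 leaving out 1 array. With shEzh2.781 the counts of 16 lower and 1 higher were 7 and 0 with all probe sets, and 9 to 14 and 0 to 1 leaving out 1 array. With shEzh2.556 the count of 17 lower was 10 with all probe sets and 10 to 18 leaving out 1 array. Between hairpins, shEzh2.781 minus shEzh2.556, the 2 lower members were 1 with arrays centred on their median, 4 above the lower quartile of signal, 0 with all probe sets and 0 to 2 leaving out 1 array. The 1 higher member was 4 with centring, 2 with an intensity trend, 0 with all probe sets and 0 to 2 leaving out 1 array. With the array number as a replicate block the counts were 20 lower and 2 higher over both hairpins, and 1 lower between hairpins, and the numbers were not found to pair the samples. The cause of these moves was not tested, beyond the fewer samples or more features of those fits. The median of all genes was 0.025, 0.023 after quantile normalization and 0.052 after centring.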

Other observations

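Some other genes of the pathway, named after their values were seen, differed between the hairpins more than any member, whose differences ran from -0.66 to 0.64. Of the 83 other pathway genes, 7 were lower and 7 higher with shEzh2.781 than with shEzh2.556, where 4.53% of all genes were lower and 5.5% higher. Sting1, the adaptor of DNA sensing, had 10.64 and 10.62 in shEzh2.781 lymphomas and 11.24 and 11.46 in shEzh2.556 lymphomas, against 10.22 and 10.46 in premalignant cells. It rose by 0.65 over both hairpins (limma, adjusted p = 0.00154) and was lower with shEzh2.781 than with shEzh2.556 by a difference of -0.72 (adjusted p = 0.00489). Cgas, the DNA sensor that feeds Sting1, rose by 0.47 (adjusted p = 0.017), while Aim2, a DNA sensor of the inflammasome, fell by 0.84 (adjusted p = 0.00117). Aim2 had 7.49 and 7.97 in shEzh2.781 lymphomas and 8.67 and 8.88 in shEzh2.556 lymphomas, against 9.04 and 9.14 in premalignant cells, and differed by -1.04 between shEzh2.781 and shEzh2.556 (adjusted p = 0.00197). Over both hairpins, Sting1 and Cgas thus rose, while Aim2 and the RNA sensor gene Ddx58 fell. Against premalignant cells, Sting1 passed only with shEzh2.556 (limma, adjusted p = 0.000179, against 0.195 with shEzh2.781). Cgas and Aim2 passed only with shEzh2.781 (adjusted p = 0.0147 and 0.000168, against 0.0951 and 0.174 with shEzh2.556). Ddx58 passed with each hairpin.

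Cmpk2 and Epsti1, both induced by interferon, were low with shEzh2.556. Cmpk2, a mitochondrial nucleotide kinase, had 8.42 and 8.52 in shEzh2.781 lymphomas and 7.39 and 7.67 in shEzh2.556 lymphomas, against 8.64 and 8.69 in premalignant cells. The difference between shEzh2.781 and shEzh2.556 was 0.94 for Cmpk2 (adjusted p = 0.000903) and 0.76 for Epsti1 (adjusted p = 0.00396). Rsad2, the chromosomal neighbour of Cmpk2, had 6.07 and 6.79 in shEzh2.781 lymphomas and 7.09 and 6.70 in shEzh2.556 lymphomas. Its hairpin groups overlapped, and the difference of -0.47 did not pass (limma, adjusted p = 0.152).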
